A study of Mus musculus with 4 samples.

Results

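The genes described here are 10 components of transforming growth factor beta (TGF-beta) signalling: the ligands Tgfb1, Tgfb2 and Tgfb3, the receptors Tgfbr1 and Tgfbr2, the signal transducer Smad3, its inhibitor Smad7, and the Id genes Id1, Id2 and Id3. They were chosen with earlier results of these data known and taken by symbol from the 24411 genes listed in each table. All 10 were found. The RNA came from 4T1, an established cell line from a mouse mammary carcinoma that forms metastatic tumours. The 2 libraries labelled control have the genotype control. The 2 libraries labelled CD95ko come from single-cell clones in which a pair of guide RNAs was aimed at exon 9 of Fas, the gene of the death receptor CD95. Per the labels' protocols, the clones were derived from a 4T1 line that carried lentiviral Cas9 under blasticidin selection, and the control RNA came from an untransduced culture and from that Cas9 line, with no label saying which control library is which. The labels mention no agent that stimulates or blocks TGF-beta. Each library labelled CD95ko is 1 clone, so properties of a clone and of the genotype cannot be told apart.

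TGF-beta ligands are secreted in a latent form and, once freed, bind TGFBR2, which recruits and activates the kinase TGFBR1. TGFBR1 phosphorylates SMAD2 and SMAD3, which enter the nucleus with SMAD4 and change transcription, and SMAD7 is an induced feedback inhibitor of the receptor. Id proteins lack a DNA-binding region and hold E proteins and related helix-loop-helix factors off DNA; Id genes are well-known targets of bone morphogenetic protein (BMP) signalling and also respond to TGF-beta. In mammary epithelium the pathway restrains growth, and in carcinoma cells it is known for its part in invasion and in the epithelial-mesenchymal transition.

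In GENCODE M21 (GRCm38, the genome that the build name mm10 in the submitters' processing notes stands for), Tgfb3 (chromosome 12, 86056745 to 86079041) and Id2 (chromosome 12, 25093799 to 25097140) are on the reverse strand. Tgfbr1 (chromosome 4, 47353222 to 47414931), Id3 (chromosome 4, 136143497 to 136145755) and Id1 (chromosome 2, 152736251 to 152737410) are on the forward strand. The other members lie on chromosomes 7 (Tgfb1), 1 (Tgfb2), 9 (Tgfbr2 and Smad3) and 18 (Smad7).

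RefSeq promoter windows of GRCm38.p6 were held for 7 of the 10 genes; Tgfb3, Smad7 and Id1 had none. The 250 bases before each start were searched on both strands for the SMAD box CAGAC, for GGCGCC, a GC-rich sequence bound by SMADs in BMP-responsive elements, and for the E-box CANNTG, the sequence read by the E proteins that Id proteins bind. Among 32851 promoter windows of the same length, 42.2% held CAGAC, 9.6% held GGCGCC and 66.2% held CANNTG. These stretches are shown because Tgfbr1 and Id2 were the genes with a window among those higher in both labelled knockout libraries, and Id3 is the Id gene that behaved otherwise. Each is written 5′ to 3′ along the gene's strand, with the match in capitals.
Tgfbr1, GGCGCC: ggctggagtaaaGGCGCCcagcggtgaggg
Id2, GGCGCC: tcaggccccctgGGCGCCcagcgcacactg
Id2, CANNTG: aatttgccacccCAGCTGggctctcgcccg
Id3, CAGAC: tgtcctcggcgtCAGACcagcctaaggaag
Id3, CAGAC on the other strand: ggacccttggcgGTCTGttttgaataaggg

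The Tgfbr1 stretch is chr4:47352977-47353006, forward strand, outside the annotated gene. The Id2 stretches are chr12:25096306-25096335 and chr12:25096271-25096300, reverse strand, both intronic to a longer annotated Id2 transcript. The Id3 stretches are chr4:136143643-136143672 and chr4:136143742-136143771, forward strand, and both lie in an exon of a longer annotated Id3 transcript. Besides these, Tgfbr1 has a second start whose window held 1 CAGAC and 1 CANNTG, Tgfb2 held 2 CAGAC and 1 CANNTG, Tgfbr2 held 1 CAGAC, and the windows of Tgfb1 and Smad3 held none of the 3 motifs. GGCGCC was thus found in the window of the first Tgfbr1 start and in that of Id2. It was absent from the second Tgfbr1 start and from the other 5 genes with a window. As Tgfb3 and Id1 had no window, its presence cannot be set against the levels of the 4 higher genes. A match to these letters is a description of the window, and no binding was measured.

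The values are TPM, a transcript abundance corrected for length and scaled to the same sum in every library, so levels can be set side by side between genes. Genes above 0 numbered 11193 to 12010 per library, and the sequencing depth is unknown from TPM. Control 2 had the lowest median TPM over the 11167 tested genes (16.3, against 21.3 to 22.9 in the other libraries). All 6 epithelial markers examined, among them Epcam and Krt8, were at 154 TPM or more in every library, and their summed level was 4550 to 4576 TPM in the controls and 8134 and 12436 TPM in the labelled knockouts; the part of this difference in the results was not tested. Of 17 fibroblast, endothelial and immune markers, 12 were listed at 0 in all 4 libraries, including Ptprc, Pecam1, Cdh5 and Col3a1. Summed levels were 0.97 to 3.02 TPM (controls) and 2.85 to 4.52 TPM (labelled CD95ko) for the 7 fibroblast markers, and at most 0.28 TPM for the 4 endothelial markers. The immune markers summed to 4.13 to 12.04 and 12.95 to 102.03 TPM, all of it Cd14. Fas itself had 49.4 and 39.2 TPM in the controls, 15.8 TPM in the library labelled CD95ko 1 and 49.5 TPM in the library labelled CD95ko 2, so total Fas transcript was not lower than the controls in the latter, and groups are named here as labelled; a gene-level value does not separate the targeted exon from the others.

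In TPM as deposited, Tgfb3, Tgfbr1, Id1 and Id2 of the 10 genes were higher in both libraries labelled CD95ko than in either control. None of the 10 was lower in both. The level of Id1 was 5.32 times, of Id2 5.51 times, of Tgfb3 3.63 times and of Tgfbr1 2.39 times the control mean. None of these differences passed the test once adjusted over all genes, and the other 6 genes had overlapping groups. The groups were compared with limma on log2(TPM + 1) over all 11167 genes with at least 1 TPM in at least 2 libraries. All 10 genes reached 1 TPM in every library, so none entered the test through 1 group alone. For a single value, 2 libraries in each group allow no two-sided p below 0.333 in an exact permutation test. As in any bulk sample, fewer cells that make a transcript and less of it per cell cannot be told apart.

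**Figure D1:**
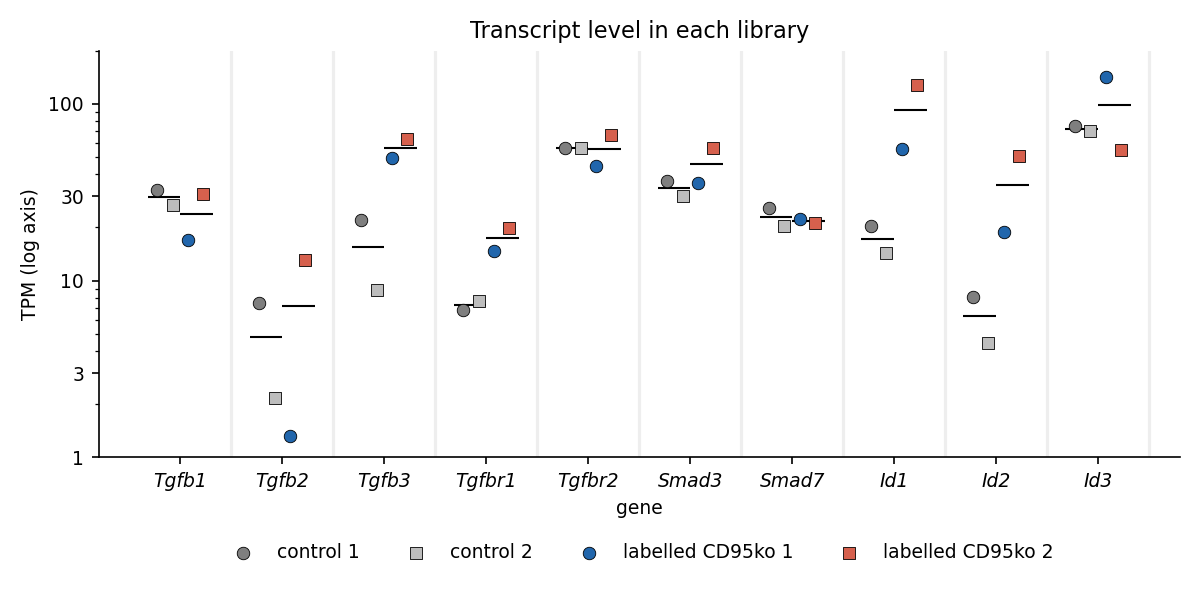
TPM (log axis) of each of the 10 genes in the 4 libraries; each point is 1 library and the horizontal bars are the group means (n = 2). Tgfb3, Tgfbr1, Id1 and Id2 have both labelled CD95ko points above both control points, while Tgfb2 and Id3 have the labelled CD95ko points on either side of the controls.

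At an adjusted p under 0.05 limma called 0 of the 10 genes, against 0.0537% of all tested genes (6 of 11167). At an unadjusted p under 0.05 it called 4 of the 10, all higher in the libraries labelled CD95ko, against 14.9% of all tested genes in either direction and 9.25% in that direction. The groups did not overlap for the same 4 genes, against 47.6% of all tested genes in either direction and 29.2% in the higher direction. For Tgfb3, Id1 and Id2 all 4 pairs of a labelled knockout and a control were over 2-fold apart, which held for 3.53% of all tested genes in the higher direction. The median log2 fold change of the 10 genes was 0.35, and that of all tested genes was 0.13.

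Among the ligands, Tgfb1, the most widely expressed isoform, had 32.8 and 27.0 TPM in the controls, 17.03 TPM in the library labelled CD95ko 1 and 30.8 TPM in the library labelled CD95ko 2. The low value of the first clone stood alone, and the second clone lay between the controls. The log2 fold change was -0.36 ± 0.45 SE (limma adjusted p = 0.744). Tgfb2 was the weakest of the 10 in 3 of the 4 libraries, with 7.46 and 2.18 TPM in the controls, 1.32 TPM in the library labelled CD95ko 1 and 13.1 TPM in the library labelled CD95ko 2. The clones bracketed the controls, and the gap between the clones (2.6 on the log2(TPM + 1) scale) was the widest of any of the 10 genes (log2 fold change 0.14 ± 0.91 SE, limma adjusted p = 0.961).

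Tgfb3, the third isoform, which signals through the same receptors, had 22.2 and 8.87 TPM in the controls, 49.3 TPM in the library labelled CD95ko 1 and 63.2 TPM in the library labelled CD95ko 2. Both clones were above both controls, and on the log2 scale the controls differed from each other by more than the clones did. The group means were 15.5 ± 9.39 and 56.3 ± 9.83 TPM (SD, n = 2 in each). The log2 fold change of Tgfb3 was 1.91 ± 0.50 SE, with a limma unadjusted p of 0.00407 and an adjusted p of 0.159. The annotated exons of Tgfb3 share 257 bases (7.6%) with Gm48008 and 163 bases (4.8%) with Gm37804 on the opposite strand, and no source states whether strand was used in counting.

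The make-up of the ligand pool can be read within a library, where scaling between libraries cancels. Tgfb1 made up 52.5% and 70.9% of the summed ligand TPM in the controls but 25.2% and 28.7% in the clones. Tgfb3 made up 35.5% and 23.3% in the controls and 72.9% and 59.1% in the labelled knockouts. Thus Tgfb1 was the most abundant ligand transcript in both controls and Tgfb3 in both clones. The exact permutation p for either share was 0.333, the smallest this design can give. The summed ligand level was 62.4 and 38 TPM in the controls and 67.7 and 107 TPM in the clones.

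**Figure D2:**
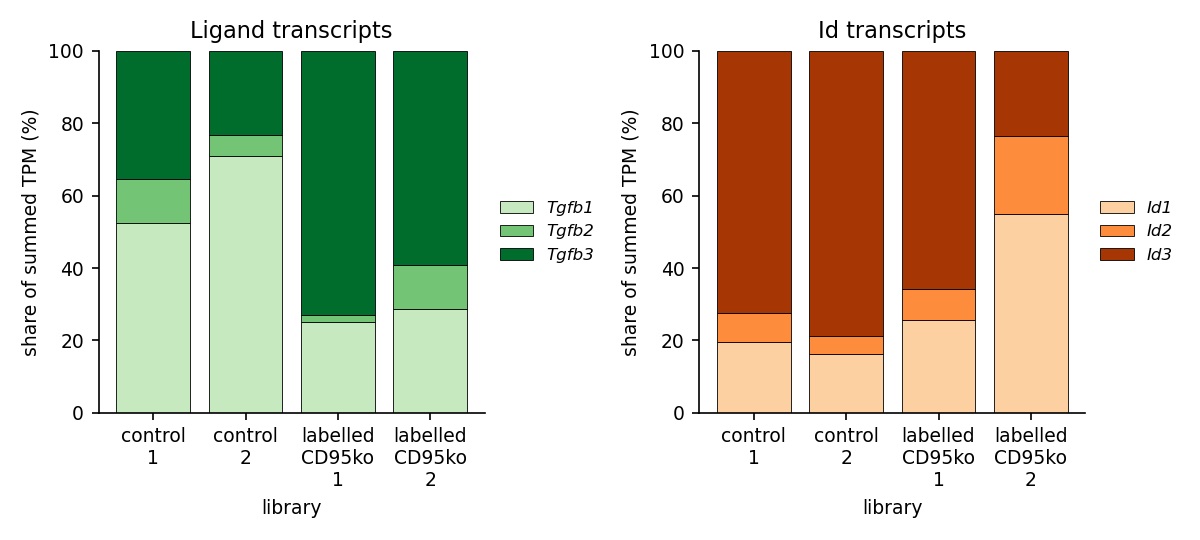
Share (%) of the summed TPM of Tgfb1, Tgfb2 and Tgfb3 (left) and of Id1, Id2 and Id3 (right) in each library. Tgfb3 is the largest ligand segment in both labelled CD95ko libraries (72.9% and 59.1%) and Tgfb1 in both controls, while Id3 is the largest Id segment in every library except the one labelled CD95ko 2 (23.5%).

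Tgfbr1, the type I receptor kinase, had 6.80 and 7.69 TPM in the controls, 14.7 TPM in the library labelled CD95ko 1 and 20.0 TPM in the library labelled CD95ko 2. The controls lay close together and both clones were above them. The log2 fold change of Tgfbr1 was 1.14 ± 0.50 SE (limma unadjusted p = 0.0474, adjusted p = 0.328). Of the 4 higher genes it was nearest to the unadjusted threshold, and its unadjusted p was 0.078 at most among the settings that used all 4 libraries. Whichever library was left out, its limma unadjusted p was not under 0.05.

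Tgfbr2, the ligand-binding type II receptor, had 56.3 and 56.5 TPM in the controls, 44.4 TPM in the library labelled CD95ko 1 and 66.9 TPM in the library labelled CD95ko 2. One clone lay below and the other above the controls, and the log2 fold change was -0.05 ± 0.37 SE (limma adjusted p = 0.968). The ratio of Tgfbr2 to Tgfbr1 transcript was 8.28 and 7.35 in the controls and 3.02 and 3.35 in the clones (7.81 ± 0.656 and 3.18 ± 0.236, SD, n = 2 in each). The ratio was therefore lower in both clones with little spread within either group, and its exact permutation p was 0.333.

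Smad3, the receptor-activated transducer, had 36.8 and 30.04 TPM in the controls, 35.6 TPM in the library labelled CD95ko 1 and 56.0 TPM in the library labelled CD95ko 2. Only the second clone stood above the controls (log2 fold change 0.42 ± 0.40 SE, limma adjusted p = 0.661). Smad7, which recruits ubiquitin ligases to the receptor, was 25.7 and 20.4 TPM in the controls and 22.4 and 21.3 TPM in the labelled clones 1 and 2. Both clones lay between the controls, and the log2 fold change of -0.06 ± 0.42 SE was smaller than its error (limma adjusted p = 0.962).

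Id1 had 20.3 and 14.3 TPM in the controls, 55.7 TPM in the library labelled CD95ko 1 and 128 TPM in the library labelled CD95ko 2. Both clones were above both controls, and the second clone was more than 2-fold above the first. Id1 had the smallest p of the 10 genes, with a log2 fold change of 2.24 ± 0.48 SE (limma unadjusted p = 0.00118, adjusted p = 0.136), and it ranked 95 by p among all tested genes. Id2, which is also needed for mammary gland development, had 8.11 and 4.45 TPM in the controls, 18.8 TPM in the library labelled CD95ko 1 and 50.5 TPM in the library labelled CD95ko 2. It had the same order of libraries as Id1, with a log2 fold change of 2.18 ± 0.59 SE (limma unadjusted p = 0.00532, adjusted p = 0.167).

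Id3 did not share this order. It had 75.1 and 69.9 TPM in the controls, 142 TPM in the library labelled CD95ko 1 and 54.9 TPM in the library labelled CD95ko 2. The first clone was above and the second below both controls, and the group difference was smaller than its error (log2 fold change 0.29 ± 0.46 SE, limma adjusted p = 0.812). Between the clones, Id1 and Id2 were higher in the library labelled CD95ko 2 by 1.19 and 1.38 on the log2(TPM + 1) scale, while the same difference of Id3, second minus first clone, was -1.36. The summed Id level was nearly the same in the clones, at 217 and 234 TPM, and was 103 and 88.7 TPM in the controls (exact permutation p = 0.333). Its make-up was not: Id3 held 65.7% of the sum in the library labelled CD95ko 1 and 23.5% in the library labelled CD95ko 2, against 72.5% and 78.8% in the controls. Id1 held 25.7% and 54.9% of the sum in the clones and 19.6% and 16.2% in the controls.

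Ordered by mean level in the controls, Id3 (72.5 ± 3.65 TPM), Tgfbr2 (56.4 ± 0.163 TPM) and Smad3 (33.4 ± 4.80 TPM; SD, n = 2) led the 10 genes, and the values of these 3 did not overlap. Smad3 and Tgfb1 overlapped, as did Id1 and Tgfb3, and Tgfbr1, Id2 and Tgfb2 overlapped in turn at the low end. In the libraries labelled CD95ko the order by mean was Id3 (98.6 ± 61.9 TPM), Id1 (92.0 ± 51.4 TPM) and Tgfb3 (56.3 ± 9.83 TPM), and each gene overlapped the next down to Smad7. Id1 was seventh and sixth of the 10 in the controls and the second and the first in the clones; Tgfb1 was the fourth in both controls and the eighth and the seventh in the clones.

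The clones differed from each other more than the controls did for 8 of the 10 genes, which held for 55.8% of all tested genes. Tgfb2, Id1, Id2 and Id3 were over 2-fold apart between the clones (4 of 10, against 23.3% of all tested genes). Between the controls, Tgfb2 and Tgfb3 were over 2-fold apart (2 of 10, against 14.4%). Of the 10 genes, 8 were higher in the library labelled CD95ko 2 than in the library labelled CD95ko 1, against 44.1% of all tested genes, with Smad7 and Id3 as the exceptions. In control 2, 8 of the 10 were below control 1, as were 75.9% of all tested genes.

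The dependence on single libraries and on scaling was uneven. Tgfb3, Tgfbr1, Id1 and Id2, and with a smaller difference Smad3, stayed positive in every setting run, with one library left out or with another scaling. Without control 2, only Tgfb3 of the 10 genes had an unadjusted p under 0.05 in limma (4.2% of all tested genes did). Without the library labelled CD95ko 2, Tgfb3 and Id1 kept such a p, Id3 gained it (unadjusted p = 0.0192, log2 fold change 0.97), and Id2 (unadjusted p = 0.0596) and Tgfbr1 (unadjusted p = 0.215) lost it (12.2% of all tested genes had it). Without 1 library, the log2 fold change ranged from 1.65 to 2.84 for Id1, from 1.49 to 2.87 for Id2 and from 0.93 to 1.35 for Tgfbr1, lowest without the library labelled CD95ko 2 and highest without the library labelled CD95ko 1. That of Tgfb3 ranged from 1.296 without control 2 to 2.53 without control 1. Without the library labelled CD95ko 1, Id1 (limma adjusted p = 0.0023), Id2 (adjusted p = 0.0142) and Tgfb3 (adjusted p = 0.041) passed the adjusted threshold, but so did 9.26% of all tested genes (1034 of 11167), and the cause of that count was not tested. With each library rescaled to the same median, the log2 fold changes were 2.04 for Id1, 1.99 for Id2, 1.71 for Tgfb3 and 0.95 for Tgfbr1, while the median of all tested genes moved from 0.13 to -0.06. For Tgfb1 and Smad7, both clones fell below both controls under quantile normalization and after median scaling. In that order, the log2 fold changes were -0.54 and -0.56 for Tgfb1 and -0.26 and -0.27 for Smad7. The groups then did not overlap for 6 of the 10 genes, against 5742 and 5700 of the 11167 tested genes. Of the genes at an unadjusted p under 0.05, 62.0% were higher as deposited, 51.9% under quantile normalization and 44.5% after median scaling.

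**Figure D3:**
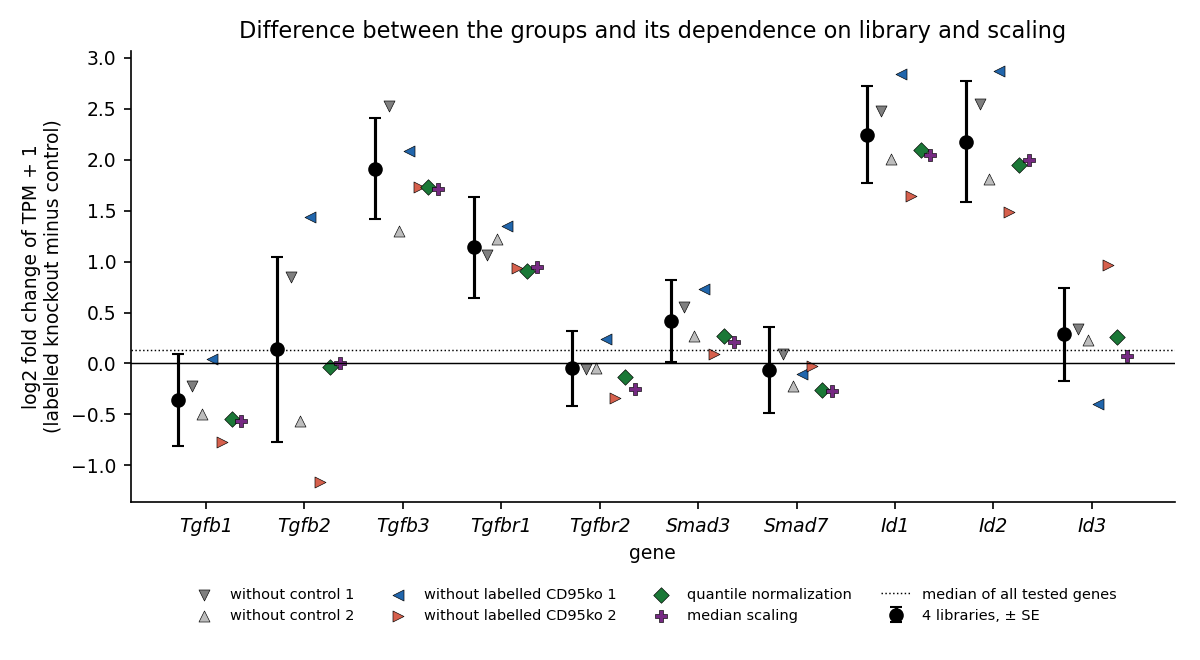
Log2 fold change of TPM + 1 (labelled CD95ko minus control) for the 10 genes: black points are the fit of all 4 libraries with its SE, coloured points leave out 1 library or change the scaling, and the dotted line is the median of all tested genes (0.13). All points for Tgfb3, Tgfbr1, Smad3, Id1 and Id2 lie above 0, while those for Tgfb1, Tgfb2, Tgfbr2, Smad7 and Id3 fall on both sides of it.

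The other genes of the pathway were read from the same fit, in lists by role. Of 86 such genes, 54 were tested, 0 passed an adjusted p under 0.05 in limma, and 11 (20.4%) had an unadjusted p under 0.05, 8 higher and 3 lower in the libraries labelled CD95ko (9.25% and 5.68% of all tested genes). Of the 8 higher genes, Acvr2b and Tgfbi reached 1 TPM in the clones alone, so the filter fixed their direction; among the 52 genes that reached it in both groups, 6 were higher and 3 lower. The median log2 fold change of the 54 genes was 0.17, and the groups did not overlap for 20 of them (37.0%, against 47.6% of all tested genes).

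Of the 8 tested genes for latency and activation, which hold TGF-beta in its latent complex or free it, 3 had an unadjusted p under 0.05, all higher (37.5%, against 9.25% of all tested genes in that direction), and 7 had a positive difference (87.5%, against 57.4%). Their median log2 fold change was 0.75, against 0.13 for all tested genes. Thbs1, thrombospondin 1, an activator of latent TGF-beta and itself a target of the pathway, had 42.5 and 15.9 TPM in the controls, 110 TPM in the library labelled CD95ko 1 and 475 TPM in the library labelled CD95ko 2. Both clones were above the controls and far apart from each other (log2 fold change 3.08 ± 0.68 SE, limma adjusted p = 0.136). Ltbp3, a latent TGF-beta binding protein, was 127 and 90.8 TPM in the controls and 275 and 295 TPM in the clones, which agreed closely (log2 fold change 1.40 ± 0.31 SE, limma adjusted p = 0.136). Itgb6, whose product forms the integrin that frees TGF-beta from its propeptide, was 2.45 and 1.61 TPM in the controls and 13.95 and 7.46 TPM in the clones (log2 fold change 1.91 ± 0.61 SE, limma adjusted p = 0.217). The other tested integrin gene of this list, Itgav, went the other way and was the only gene of the 8 with a negative difference. It was 30.3 and 24.9 TPM in the controls and 19.4 and 17.3 TPM in the clones (log2 fold change -0.56 ± 0.42 SE, limma adjusted p = 0.566).

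Among the 5 tested genes of the other ligands 1 had an unadjusted p under 0.05, in the higher direction (20%, against 9.25% of all tested genes in that direction). This gene was Bmp1, at 141 and 114 TPM in the controls and 276 and 331 TPM in the clones (log2 fold change 1.25 ± 0.30 SE, limma adjusted p = 0.147). Despite its name Bmp1 encodes a metalloprotease that processes procollagen and matrix proteins, not a ligand. The share thus rests on 1 gene that is not a ligand, and none of the tested ligands in this list had an unadjusted p under 0.05. Bmp2, Bmp4 and Bmp6 were listed at 0 in all 4 libraries, and Bmp7 was 7.75 and 13.8 TPM in the controls and 8.12 and 34.9 TPM in the clones (limma adjusted p = 0.684). Gdf11 was 4.79 and 1.5 TPM in the controls and 2.72 and 7.58 TPM in the clones (limma adjusted p = 0.745). Of the 7 tested receptors and co-receptors, 1 had an unadjusted p under 0.05 (14.3%, against 14.9% of all tested genes in either direction). This gene was Acvr2b, an activin type II receptor, at 0.73 and 0.80 TPM in the controls and 2.91 and 6.09 TPM in the clones (limma adjusted p = 0.316). It entered the test through the clones alone, which fixed its direction. Acvr1, a type I receptor for BMPs, was 29.9 and 20.4 TPM in the controls and 15.7 and 19.2 TPM in the clones (limma adjusted p = 0.638). Eng, the co-receptor endoglin, had the highest mean of this list, at 68.3 and 39.3 TPM in the controls and 57.1 and 83.5 TPM in the clones (limma adjusted p = 0.671).

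Of the 19 tested SMADs and SMAD regulators, 1 had an unadjusted p under 0.05 in the higher and 2 in the lower direction (15.8% in all, against 14.9% of all tested genes), and the median was -0.08. Smad6, the inhibitory SMAD of the BMP branch, was 1.21 TPM in control 1, listed at 0 in control 2, 3.73 TPM in the library labelled CD95ko 1 and 12.3 TPM in the library labelled CD95ko 2 (limma adjusted p = 0.216). Strap, whose product binds the TGF-beta receptors and acts with SMAD7, was 183 and 173 TPM in the controls and 107 and 54.2 TPM in the clones (log2 fold change -1.21 ± 0.38 SE, limma adjusted p = 0.214). Tgif1, a co-repressor of SMAD-dependent transcription, was 228 and 246 TPM in the controls and 138 and 124 TPM in the clones (log2 fold change -0.86 ± 0.29 SE, limma adjusted p = 0.239). Fkbp1a, which binds the type I receptor and had the highest mean of this list, was 276 and 244 TPM in the controls and 223 and 205 TPM in the clones (limma adjusted p = 0.682). Of the secreted antagonists, 3 of 9 were tested, and 1 had an unadjusted p under 0.05, in the lower direction (33.3%, against 5.68% of all tested genes in that direction). With 3 genes this share rests on 1 gene. Nbl1, a BMP antagonist, had 33.2 and 20.1 TPM in the controls, listed at 0 in the library labelled CD95ko 1 and at 7.81 TPM in the library labelled CD95ko 2 (limma adjusted p = 0.187). Fstl3, a follistatin-like activin antagonist, was 54.9 and 31.1 TPM in the controls and 30.9 and 52.4 TPM in the clones (log2 fold change -0.04 ± 0.45 SE, limma adjusted p = 0.977). Fst, which encodes follistatin, was 4.25 and 1.04 TPM in the controls, listed at 0 in the first clone and at 2.32 TPM in the second (limma adjusted p = 0.671).

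The TGF-beta target genes gave no common direction: 9 of the 13 tested had a positive and 4 a negative difference (median 0.29). Of the 12 that reached 1 TPM in both groups, Thbs1 and Fn1 had an unadjusted p under 0.05, both higher (9.25% of all tested genes had it in that direction). Among the settings with all 4 libraries, the call of Fn1 held only in the main one: its unadjusted limma p was 0.062 to 0.118 in the others. With 1 library left out, its log2 fold change ranged from 0.52 without the library labelled CD95ko 2 to 2.00 without the library labelled CD95ko 1. Fn1, which encodes fibronectin, had 347 and 151 TPM in the controls, 329 TPM in the library labelled CD95ko 1 and 921 TPM in the library labelled CD95ko 2, so only the second clone was above both controls (limma adjusted p = 0.313). Tgfbi, an extracellular matrix protein named for its induction by TGF-beta, was 0.90 TPM in control 1, listed at 0 in control 2, and at 7.74 and 2.49 TPM in the clones, and since it entered the test through the clones alone its direction was fixed by the filter (limma adjusted p = 0.269). Cdkn1a, the cell cycle inhibitor p21, was 10.3 and 24.1 TPM in the controls and 14.5 and 23.2 TPM in the clones, with no order by group (limma adjusted p = 0.894). Junb, with the highest mean of the targets, was 829 and 888 TPM in the controls and 800 and 1378 TPM in the clones (limma adjusted p = 0.709).

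Of the factors that Id proteins bind, the E proteins Tcf3, Tcf4 and Tcf12, none had an unadjusted p under 0.05. Tcf3 was 63.1 and 49.3 TPM in the controls and 76.2 and 113 TPM in the clones, which were above both controls (log2 fold change 0.73 ± 0.36 SE, limma adjusted p = 0.385). Tcf4 was 42.8 and 33.3 TPM in the controls and 61.6 and 38.7 TPM in the clones (limma adjusted p = 0.705), and Tcf12 was 51.4 and 31.2 TPM in the controls and 37.3 and 29.7 TPM in the clones (limma adjusted p = 0.812). Id4, the remaining family member, was 2.26 TPM in control 1 and listed at 0 in the other libraries.

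**Figure D4:**
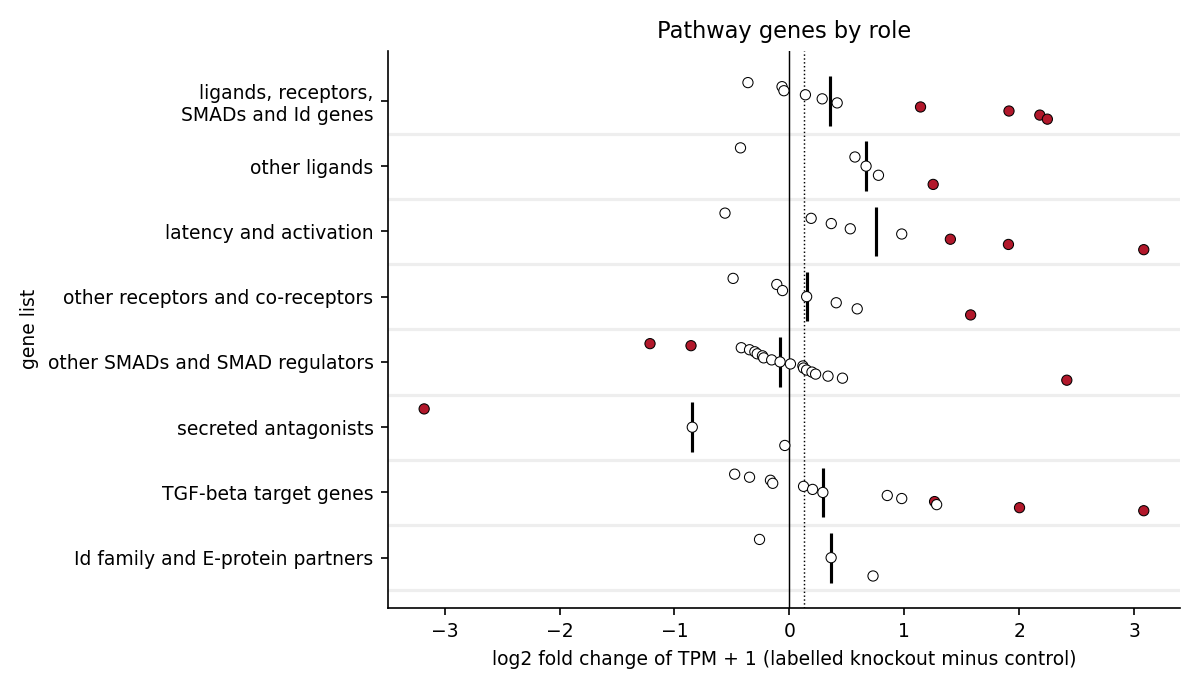
Log2 fold change of TPM + 1 (labelled CD95ko minus control) for the 10 genes (top) and for the tested genes of each pathway list; each point is 1 gene, red points have a limma unadjusted p under 0.05, thick bars are list medians and the dotted line is the median of all tested genes (0.13). The medians run from -0.84 (3 secreted antagonists) to 0.75 (8 latency and activation genes); Acvr2b and Tgfbi, both red, reached 1 TPM in the clones alone.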

How the data were processed

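Poly(A)-selected RNA of 4 cultures of 4T1 cells was sequenced, 2 libraries labelled control and 2 labelled CD95ko. The authors deposited 1 table per library that pairs gene symbols with TPM, per the file headers. STAR 2.6.0, RSEM 1.3.0 and the build mm10 are named in the submitters' processing notes, and the annotation is not given in the sources used here. TPM holds no read numbers, so tests for counts, intervals and detection floors could not be used, and a 0 is reported as listed at 0.

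The 11167 of 24411 genes that reached 1 TPM in 2 or more libraries were tested, and log2(TPM + 1) was compared with limma 3.58.1 in R 4.3.3 (eBayes with trend, two-sided, Benjamini-Hochberg adjustment over all tested genes, threshold 0.05). Adding 1 before the log shrinks the fold changes of genes with low TPM. The labels give no batch or date. The p-values rest on the spread between the 2 libraries of each group, drawn by eBayes toward that of genes of similar level. In the controls this spread lies between an untransduced culture and a Cas9 line, and in the labelled knockouts between 2 clones. The procedure was tested on simulated data with independent noise for each gene and library. Shifts that many genes of a clone or library share were not simulated, so that test does not bear on them. The 10 genes and the pathway and marker lists were chosen with earlier results of these data known. From each pathway list the text names up to 3 genes with the smallest p and the gene with the highest mean, with Cdkn1a as a textbook output. A further gene named by the rule is left out here. Bmp2, Bmp4, Bmp6, Id4 and Itgav were named after their values were seen. Ccn2 is listed under its older symbol Ctgf. Gene positions and overlaps came from GENCODE M21 and promoter windows from RefSeq. The alternatives were robust eBayes, eBayes without trend, no filter, a pseudocount of 0.1, quantile normalization, median scaling, the replicate number as a block, and leaving out each library.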

Additional observations from a re-analysis of the deposited data

How the results depend on the processing

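The number of the 10 genes past an adjusted p of 0.05 in limma was 0 in every setting that used all 4 libraries, and 0 to 3 with 1 library left out (3 without the library labelled CD95ko 1); the number at an unadjusted p under 0.05, 4 as reported, was 3 to 4 and 1 to 3 (1 without control 2). For the 54 other pathway genes (65 without the filter) these counts were 0 and 0 to 8 (adjusted; 8 without the library labelled CD95ko 1 and 1 without the library labelled CD95ko 2), and 9 to 11 and 2 to 16 (unadjusted, 11 as reported; 6 without control 1 and 2 without control 2). Over all genes the adjusted count, 6 as reported, was 0 in each of 5 settings (pseudocount 0.1, no filter, no trend, quantile normalization, median scaling), 52 under robust eBayes, 2 with the replicate block and 0 to 1034 with 1 library left out (0 without either control, 1034 and 194 without the libraries labelled CD95ko 1 and 2; in the same order, unadjusted 1553, 1636, 1531, 1862, 1834, 1706, 1685 and 469 to 2713, against 1667); the cause was not tested. With 1 library left out, the lone library is assumed to vary like the other group. The replicate numbers count different lines or clones and do not pair the libraries: same-numbered deviations from the group means correlated at -0.08 across genes. The replicate block left 0 of the 10 genes past the adjusted threshold. With all 4 libraries, the unadjusted limma p rose past 0.05 in some settings for Tgfbr1 (at most 0.078), Acvr2b (0.054), Tgif1 (0.065) and Fn1 (0.118). Of 245 values of the single genes named by the rule, 243 kept direction and side of the adjusted threshold. None of these genes passed that threshold as reported, so keeping the side says little about the unadjusted calls. Tgfb2 turned to -0.033 under quantile normalization and Cdkn1a to -0.0023 after median scaling. With 1 library left out, 17 of 140 turned direction and 10 passed the threshold. The ranges of log2 fold change were -0.77 to 0.048 for Tgfb1, -1.16 to 1.44 for Tgfb2, -0.34 to 0.24 for Tgfbr2, -0.23 to 0.10 for Smad7, -0.39 to 0.97 for Id3, -0.32 to 1.65 for Bmp7, -0.035 to 1.18 for Gdf11, -1.71 to 0.021 for Fst, -0.44 to 0.36 for Fstl3, -0.10 to 0.68 for Junb, -0.61 to 0.092 for Tcf12, -1.42 to 0.16 for Fas and -0.37 to 0.77 for Cdkn1a. TPM gives no depth, so a gene listed at 0 may have been too weak to be counted.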
